A study of Mus musculus with 265 samples.

Results

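Accessibility at the genes of the Myc network was read from the scATAC-seq regions of 9 genes, Myc, Mycn, Max, Mxd1, Mxi1, Mxd3, Mxd4, Mnt and Mga. A region was assigned to one of these genes when its nearest protein-coding start site in GENCODE vM21 belonged to that gene and lay within 50 kb, on mm10. This rule took 29 of the 20103 regions, and each of the 9 genes had at least 1. Regions from the Myc start to 2 Mb downstream of it on chromosome 15 were listed separately, which gave 16 regions, of which 2 were also among the 5 assigned to Myc and 14 lay beyond 50 kb. The cells were ERt2-Ikaros B3 cells, a mouse pre-B cell line that carries Ikaros joined to the ERt2 domain, the hormone-binding part of the estrogen receptor, so that the fusion moves to the nucleus when 4-hydroxytamoxifen (4OHT) is added. Both groups carry this fusion and come from this 1 line. The 0-hour cells were taken before 4OHT, and the 24-hour cells were taken after 24 hours of 4OHT, with a further dose at about 12 hours. Cells that received 4OHT without the fusion were not analysed here, so the drug and nuclear Ikaros cannot be told apart. Each time-point had 2 Fluidigm C1 runs, with 48 and 47 cells at 0 hours and 60 and 72 cells at 24 hours.

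Myc is a transcription factor that drives growth and cell division, and it binds DNA at the E-box, with the core letters CACGTG, only as a pair with Max. Mxd1, Mxi1, Mxd3, Mxd4 and Mnt pair with the same Max and recruit Sin3 corepressors to E-boxes, and Mga is a large Max partner that works in a Polycomb complex, so these proteins compete with Myc for Max and for its sites. In early B cells Myc is active in large cycling pre-B cells and is turned down when they become small resting pre-B cells, a step in which Ikaros, a zinc finger factor that binds sites with the core letters GGGAA, is known to take part. Enhancers that act on Myc in blood cells are known to lie far downstream of the gene, beyond the noncoding gene Pvt1.

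Cells held between 334 and 7940 counts over all regions, and the run totals lay between 92639 and 164357. The run medians lay between 1676 and 1839.5 counts per cell, apart from 0-hour run 1 at 2898. Shares of cells with a region rise with the depth of the cells, so each share is given per run, with an exact 95% interval where it carries a result, and counts were also compared as CPM, that is scaled to a run total of 1000000 after TMM normalization. Whether the runs came from separate cultures is stated neither in the labels nor in the paper, so p-values measure only the spread between runs. Of 12 pre-B cell markers, 11 had a region, detected in 6.17% to 52% of the 227 cells, and Rag1 had none. Of the T cell, myeloid and erythroid markers, only Cd3d, Lyz2 and Klf1 had a region, in 6.61%, 2.64% and 9.69% of cells.

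The following sequences belong to the Myc promoter regions whose runs did not overlap between time-points and to the 3 regions of the downstream window with the smallest p-values. They are the forward strand of mm10 in lower case, and capitals mark each CACGTG and each GGGAA on either strand.
Myc at -0.92 kb chr15:61984416-61984526: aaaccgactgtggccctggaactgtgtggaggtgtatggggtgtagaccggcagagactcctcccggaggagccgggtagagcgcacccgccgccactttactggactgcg
Myc at -0.28 kb chr15:61985014-61985201: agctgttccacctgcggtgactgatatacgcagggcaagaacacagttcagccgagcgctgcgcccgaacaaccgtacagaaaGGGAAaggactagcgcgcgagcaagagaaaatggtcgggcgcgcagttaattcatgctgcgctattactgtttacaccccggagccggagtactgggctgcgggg
Downstream of Myc, 1285 kb chr15:63270478-63270580: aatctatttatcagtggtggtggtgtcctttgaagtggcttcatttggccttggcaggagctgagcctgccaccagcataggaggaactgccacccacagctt
Downstream of Myc, 1663 kb chr15:63648274-63648400: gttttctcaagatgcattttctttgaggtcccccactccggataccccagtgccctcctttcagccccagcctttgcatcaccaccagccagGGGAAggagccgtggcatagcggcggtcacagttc
Downstream of Myc, 1694 kb chr15:63679062-63679177: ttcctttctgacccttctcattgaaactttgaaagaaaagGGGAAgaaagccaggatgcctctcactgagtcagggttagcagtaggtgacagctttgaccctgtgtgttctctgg

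The next sequences belong to partner regions that were detected in the most cells or that hold a CACGTG E-box. Capitals mark the same letters, distances are from the start of the gene, and where a region overlaps an exon only the part outside it, or a 30-base window around the E-box, is shown.
Mxd1 promoter chr6:86669413-86669530: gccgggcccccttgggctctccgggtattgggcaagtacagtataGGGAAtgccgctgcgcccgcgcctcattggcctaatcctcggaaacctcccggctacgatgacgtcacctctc
Max promoter chr12:76962324-76962412: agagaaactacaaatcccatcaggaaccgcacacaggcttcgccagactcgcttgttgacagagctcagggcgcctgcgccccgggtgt
Mxd3 promoter chr13:55330009-55330092: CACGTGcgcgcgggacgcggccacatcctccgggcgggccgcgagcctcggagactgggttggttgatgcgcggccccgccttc
Mga at -24.4 kb, E-box window chr2:119872761-119872790: gcctgcgagcagCACGTGactcggcctggc
Mnt promoter, E-box window chr11:74830789-74830818: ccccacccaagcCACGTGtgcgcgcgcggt

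The 29 regions were like the rest of the matrix in how often they were seen. The median member region was seen in 15 cells (5 to 59), and the median of all regions in 13. The matrix holds no region seen in fewer than 5 cells, and 2 member regions reached 5 cells in the 0-hour cells alone and 5 in the 24-hour cells alone. A region kept through 1 time-point in this way was selected in part for its signal there, so its difference is a description, and so is that of a sum that holds it. Of the 29, 13 lay within 1 kb of the start of their gene, which is 44.8% against 43.7% of all regions. A run in which the region was not detected at all occurred for 8 of the 29. At least 1 member region was detected in 81.2% and 68.1% of the 0-hour cells of runs 1 and 2, and in 75.0% and 88.9% of the 24-hour cells. The runs of the time-points overlapped in this share, and the median cell held 1 or 2 member regions in every run. Drawing 837 counts from each cell, with 23 cells too shallow for it, gave shares of 54.2% and 45.7% at 0 hours and 68.1% and 69.8% at 24 hours, which did not overlap.

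No member passed the test between time-points. With edgeR's quasi-likelihood test over all regions and Benjamini-Hochberg adjustment, 0 of the 29 member regions were called, against 0.0547% of all regions, and 2 had an unadjusted p under 0.05, both kept through the 24-hour cells alone, against 12.1% of all. With counts summed over the regions of each gene, 0 of the 9 genes were called, against 0.354% of the 9894 genes with a region, and 2 had an unadjusted p under 0.05, Myc and Mga, against 12% of all. DESeq2 called 0 member regions and 0 member genes as well, as it did over all regions and genes, with 0 member regions and 1 member gene at an unadjusted p under 0.05, against 5.4% of all regions and 5.66% of all genes. Higher in each 0-hour run than in either 24-hour run were 2 member regions, against 25.7% of all regions, and 1 member gene, Myc, against 21.9% of all genes. The opposite order held for 4 member regions, against 19.3% of all regions, and for 3 member genes, Mycn, Max and Mga, against 21.5% of all genes. The median log2 change was 0.27 over the 29 regions and -0.06 over all regions, and it was 0.23 over the 9 genes and 0.04 over all genes. The standard error of a single member region's log2 change had a median of 0.92, so at this depth changes of about that size were not detectable in single regions.

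**Figure D1:**
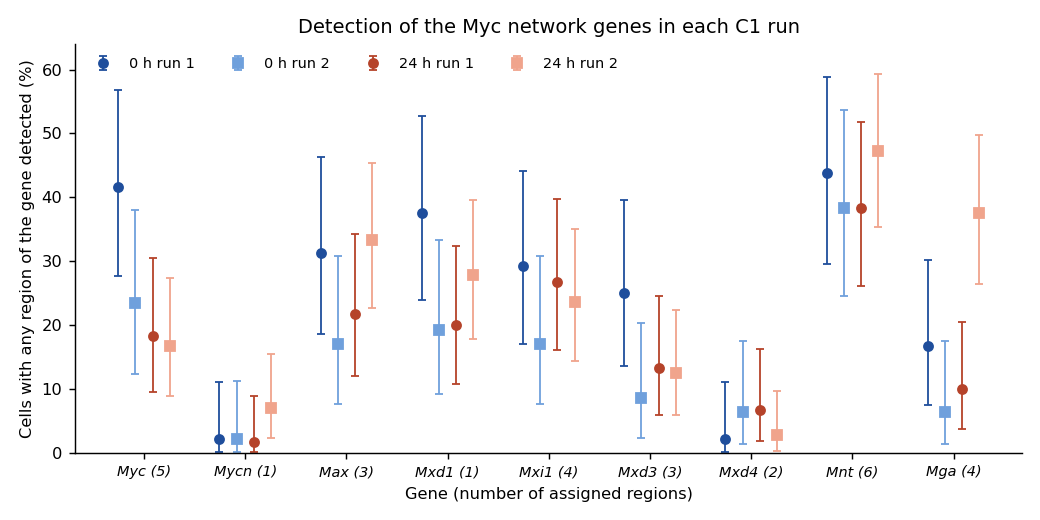
Share of cells (%) in which any region assigned to a gene was detected, for each gene (number of regions in parentheses) and C1 run. Points are shares and bars are exact 95% intervals, which cover counting error only. For Myc each 0-hour point is higher than each 24-hour point, and for Mga 24-hour run 2 lies far above the other 3 runs.

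Myc was the member whose regions were lower after 4OHT in both runs. Any of its 5 regions was detected in 20 of 48 cells (41.7%, 27.6% to 56.8%) in 0-hour run 1 and 11 of 47 (23.4%, 12.3% to 38.03%) in 0-hour run 2. The same held for 11 of 60 cells (18.3%, 9.52% to 30.4%) in 24-hour run 1 and 12 of 72 (16.7%, 8.92% to 27.3%) in 24-hour run 2. The 0-hour shares were higher than the 24-hour shares, but the intervals overlapped except between 0-hour run 1 and 24-hour run 2. The cells with a Myc region were deeper than the others in every run, with a median of 3953.5 against 2344 counts in 0-hour run 1 and 2474 against 1462 in 24-hour run 2. With each cell thinned to 837 counts, the shares were 16.7% and 13% at 0 hours and 12.8% and 7.94% at 24 hours, so the order of the groups was kept and the gap between 0-hour run 2 and 24-hour run 1 was small.

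Scaled to the counts in regions assigned to genes, Myc's regions held 333 and 278 CPM at 0 hours and 163 and 158 CPM at 24 hours. Both 0-hour values were higher than both 24-hour values, which holds for 21.9% of all genes. The fitted log2 change was -0.94 (SE 0.45, n = 2 runs each, unadjusted p = 0.0406 and adjusted p = 0.379 by edgeR), a difference that did not pass the test. All of the 12 alternatives in which Myc had a value kept the direction, with log2 changes between -1.32 and -0.79 and adjusted p-values from 0.239 to 0.881. The value of -1.32 came from the cell number as offset, where the median of all genes moved to -0.33.

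All 5 Myc regions had a fitted log2 change below 0, but the runs separated by time-point in only 2. The 5 regions lie at -1.90, -0.92, -0.28, 0.09 and 1.68 kb from the start of the gene, which runs on the forward strand of chromosome 15 from 61985391 to 61990374. The region at -0.92 kb (chr15:61984416-61984526) held 30.3 and 31.3 CPM at 0 hours and 8.09 and 0 CPM at 24 hours, from 4, 2, 1 and 0 cells. Its neighbour at -0.28 kb (chr15:61985014-61985201) held 48.5 and 115 CPM at 0 hours and 16.2 and 44 CPM at 24 hours, from 7, 6, 2 and 4 cells. At Myc these were the regions without overlap between the time-points, with fitted log2 changes of -2.71 (SE 1.65, adjusted p = 0.538 by edgeR) and -1.34 (SE 0.89, adjusted p = 0.586 by edgeR). Without any one run these lay between -5.07 and -1.81 and between -2.18 and -0.66, and in thinned cells they were -0.97 and -0.18. The first of them reached 5 cells at 0 hours alone. The region over the start itself, in the first exon, held 84.9 and 31.3 CPM at 0 hours and 56.6 and 14.7 CPM at 24 hours, with a log2 change of -0.78 (SE 0.92). The region at 1.68 kb, which reaches into an exon upstream of the coding sequence, held 84.9 and 0 CPM at 0 hours and 40.4 and 36.7 CPM at 24 hours, with a log2 change of -0.30 (SE 0.97). The region at -1.90 kb held 36.4 and 52.2 CPM at 0 hours and 24.3 and 51.3 CPM at 24 hours, with a log2 change of -0.18 (SE 0.97). In the last 3 regions the runs of the time-points overlapped. Over the 3 regions within 1 kb of the start, 29.2% and 21.3% of the 0-hour cells and 10.0% and 6.94% of the 24-hour cells held a signal.

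**Figure D2:**
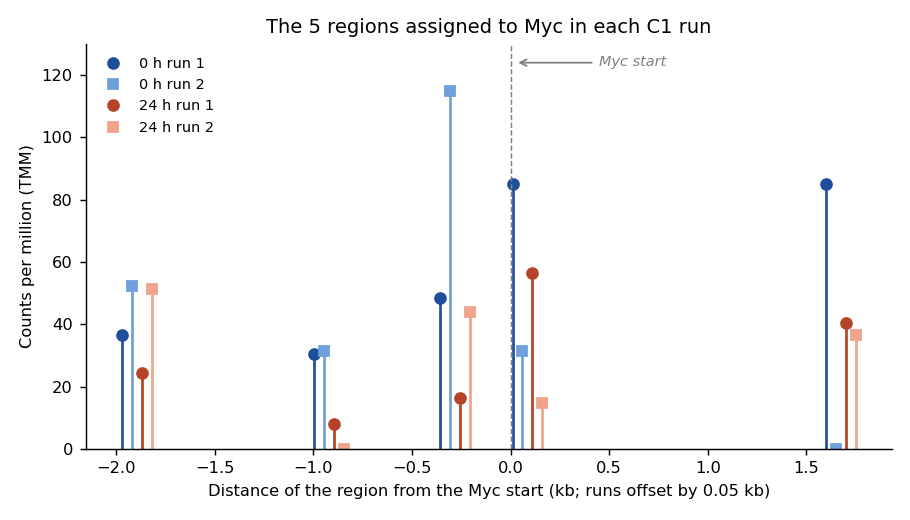
TMM-normalized CPM of the 5 regions assigned to Myc against their distance from the Myc start (kb), one point per C1 run, with the runs of a region set side by side. The runs separate by time-point at -0.92 and -0.28 kb and overlap at the other 3 regions.

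Mycn, the paralog of Myc best known from neural tissue and also active in early lymphocytes, had 1 region (chr12:12942487-12942633), 0.65 kb upstream of its start. It was detected in 1 cell of each run except 24-hour run 2, in which 5 of 72 cells held it (6.94%, 2.29% to 15.5%). Its level was 14.2 and 12.6 CPM at 0 hours and 18.1 and 79.0 CPM at 24 hours. The region reached 5 cells at 24 hours alone. Its log2 change of 1.78 (SE 1.23) rested on 24-hour run 2, and without that run it was 0.39 (SE 1.98).

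Max, the partner that Myc and its antagonists share, had 3 regions. Together they were detected in 31.2% and 17% of the 0-hour cells and in 21.7% and 33.3% of the 24-hour cells. Their level was 227 and 190 CPM at 0 hours and 245 and 300 CPM at 24 hours, with both 24-hour runs higher, as for 21.5% of all genes. The log2 change of 0.37 (SE 0.44, adjusted p = 0.818 by edgeR) did not pass the test, and scaling by the number of cells gave -0.01. Leaving out any one run gave 0.21 to 0.52. The region at the Max promoter, 0.13 kb upstream of the start, was the most often seen of the 3, in 9, 8, 8 and 22 cells of the 4 runs in the order 0-hour runs 1 and 2 and 24-hour runs 1 and 2. A region 4.30 kb inside the gene was detected in 7, 0, 7 and 2 cells, so that 1 run of each time-point was low, and a region 38 kb upstream, within the noncoding gene Gm35041, was detected in 3, 1, 1 and 2 cells.

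The Mxd genes encode the classical antagonists, which are known to appear as cells leave the cycle. Mxd1 had 1 region, 0.31 kb upstream of its start, and this was the most widely detected of all 29. It was found in 18 of 48 (37.5%) and 9 of 47 (19.1%) cells at 0 hours and in 12 of 60 (20.0%) and 20 of 72 (27.8%) at 24 hours. Its level was 184 and 139 CPM at 0 hours and 163 and 221 CPM at 24 hours, and the runs overlapped, with a log2 change of 0.23 (SE 0.50). Per 100 bases of region, Mxd1 had the highest level of the 9 genes, 150 CPM ± 29.5 (SD over the 4 runs), and its lowest run, at 117.8, was above the highest run of every other member. Max at 54.1 ± 10.4, Mnt at 52 ± 8.30, Mxi1 at 40.0 ± 9.32, Mga at 39.1 ± 36.1, Mxd3 at 36.9 ± 9.83, Myc at 30.9 ± 11.5, Mycn at 21.1 ± 21.8 and Mxd4 at 17.3 ± 10.5 CPM per 100 bases followed in this order. Within that order, the runs of each gene overlapped with those of the next.

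Mxi1, a further member of this family, had 4 regions, spread over 19 kb from its start. Summed, they held 220 and 164 CPM at 0 hours and 290 and 213 CPM at 24 hours, which overlap, with a log2 change of 0.36 (SE 0.46). Leaving out any one run gave 0.12 to 0.61, and the sign reversed under 3 of 13 alternatives. The region at 19 kb (chr19:53329477-53329621) lies 0.09 kb from the start of a shorter annotated transcript, in its first exon. It was detected in 3 and 1 cells at 0 hours and in 7 and 5 cells at 24 hours, with 24.3 and 10.4 CPM against 113 and 44 CPM. Both 24-hour runs were higher, and the log2 change was 2.01 (SE 0.97), but the region reached 5 cells at 24 hours alone. Without any one run it lay between 1.20 and 2.80, and it was not called. The region over the annotated gene start was detected in 2, 1, 2 and 1 cells, a region at 3.79 kb in 10, 7, 6 and 10 cells and a region at 17.8 kb in 5, 0, 3 and 1 cells, and in these 3 the time-points overlapped.

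Mxd3 and Mxd4 showed no order by time-point. Mxd3, which is unusual in this family in being expressed in dividing cells, had 3 regions with 163 and 101 CPM at 0 hours and 163 and 103 CPM at 24 hours. In it the first run of each time-point was high and the second low, and the log2 change was -0.04 (SE 0.57). Mxd4 had 2 regions, 1 of them inside the neighbouring gene Zfyve28, and they held 14.2 and 63.2 CPM at 0 hours and 54.4 and 23.7 CPM at 24 hours, with a log2 change of 0.14 (SE 1.07) that became 3.56 in thinned cells. They were detected in 10 of all 227 cells.

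Mnt, an antagonist found in most cells, cycling ones included, had the most regions, 6, and was the member detected in the most cells. The shares were 43.8% and 38.3% at 0 hours and 38.3% and 47.2% at 24 hours. Its level was 432 and 468 CPM at 0 hours and 417 and 584 CPM at 24 hours, which overlap, and the log2 change was 0.16 (SE 0.35), the smallest error of the 9 genes. Scaling by the number of cells gave -0.20. Among its regions, the one at -0.94 kb held 36.4 and 31.3 CPM at 0 hours and 40.4 and 132 CPM at 24 hours, where 24-hour run 2 carried the difference. In the other 5 regions the runs of the time-points overlapped.

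Mga had the smallest p-value of the 9 genes, and 1 run carried it. Of its 4 regions, 3 reached 5 cells at 24 hours alone, so the values of the sum are a description. The 4 regions held 78.0 and 63.2 CPM at 0 hours and 90.6 and 340 CPM at 24 hours. Both 24-hour runs were higher, but 24-hour run 1 lay close to the 0-hour runs. The log2 change was 1.59 (SE 0.59, unadjusted p = 0.00813 and adjusted p = 0.212 by edgeR), and without 24-hour run 2 it was 0.33 (SE 0.82, adjusted p = 0.952). Without 24-hour run 1 the call was made, with 2.22 (SE 0.53, adjusted p = 0.00345), in a fit that assumes the lone 24-hour run to vary like the 0-hour runs.

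The signal in 24-hour run 2 came from 3 neighbouring regions about 24 kb upstream of the annotated Mga start, the first of which lies in a predicted RefSeq exon of Mga. Any of the 3 was detected in 2 of 48 and 3 of 47 cells at 0 hours, in 3 of 60 cells in 24-hour run 1 and in 22 of 72 cells (30.6%, 20.2% to 42.5%) in 24-hour run 2. The region over the annotated Mga start had no such peak in 24-hour run 2, with 48.5 and 10.4 CPM at 0 hours and 56.6 and 51.3 CPM at 24 hours. With only regions within 10 kb of a start, Mga kept this 1 region and its log2 change was 0.51.

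**Figure D3:**
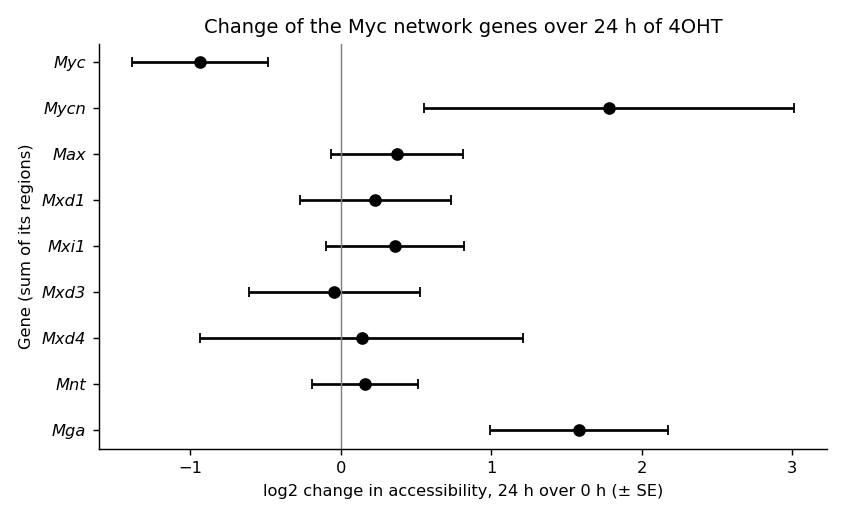
Fitted log2 change in accessibility, 24 hours over 0 hours, of the summed regions of each gene (edgeR, 2 C1 runs per time-point). Points are estimates and bars are ± 1 SE, Myc lies at -0.94, Mga at 1.59 and Mycn at 1.78, and no gene passed the adjusted threshold.

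Since Myc and its antagonists draw on the same Max, the level of Myc was also set against its partners in each run. Divided by the level at Max, the level at Myc was 1.47 and 1.47 at 0 hours and 0.667 and 0.526 at 24 hours. Against the sum of Mxd1, Mxd3, Mxd4 and Mxi1 it was 0.573 and 0.595 at 0 hours and 0.243 and 0.282 at 24 hours, and against Mnt 0.770 and 0.595 at 0 hours and 0.391 and 0.270 at 24 hours. The time-points did not overlap in any of these 3 ratios. They compare numbers of counts in regions of different total length within a run, do not depend on how runs were normalized, and contain Myc's own difference, so they are a description and no further evidence for it. Summed over all 9 genes the level was 1665 and 1479 CPM at 0 hours and 1604 and 2022 CPM at 24 hours, and without Mga 1587 and 1416 CPM against 1513 and 1682 CPM.

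**Figure D4:**
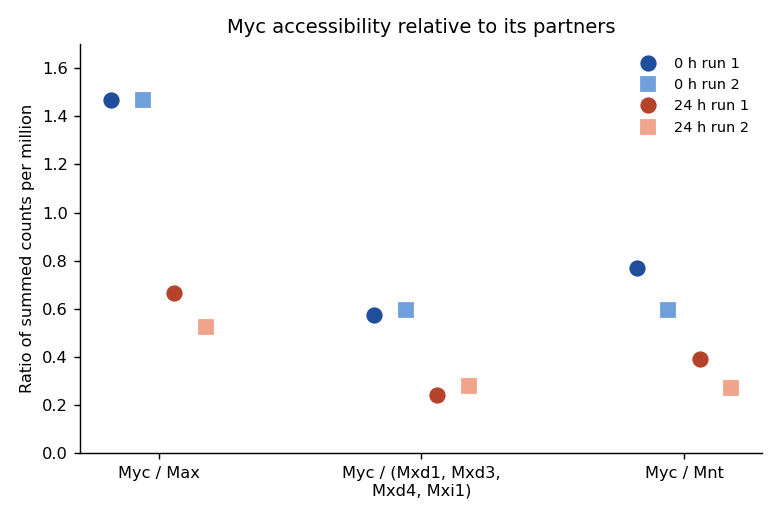
Summed CPM of the Myc regions divided by those of Max, of Mxd1, Mxd3, Mxd4 and Mxi1 together, and of Mnt, with one point per C1 run. The 0-hour runs lie at 1.47 and 1.47 against Max and the 24-hour runs at 0.667 and 0.526.

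Downstream of Myc, the 16 regions of the 2 Mb window summed to lower levels in both 24-hour runs than in either 0-hour run. Of the 16, 5 reached 5 cells in the 0-hour cells alone and 1 in the 24-hour cells alone, so the sums and shares of the window are a description. They held 637 and 595 CPM at 0 hours and 477 and 323 CPM at 24 hours, a log2 ratio of the means of -0.62, and with 2 runs against 2 the two-sided exact permutation test could not go below p = 0.33, the value it gave. Over the 14 regions beyond 50 kb, an alternative chosen after seeing the data, the sums were 467 and 564 CPM against 380 and 271 CPM. At least 1 of these 14 was detected in 56.2% and 51.1% of the 0-hour cells and in 35% and 20.8% of the 24-hour cells, and after thinning in 27.1% and 32.6% against 23.4% and 11.1%. The order of the groups was the same in all of these measures. Single regions of the window passed no test, with 0 of 16 called by edgeR or DESeq2, against 0.0547% of all regions by edgeR. At an unadjusted p under 0.05 edgeR gave 3, each lower at 24 hours, against 7% of all regions in that direction, and DESeq2 gave 2, against 5.4% of all regions in either direction. In 5 of the 16 the 0-hour runs were both higher than either 24-hour run, against 25.7% of all regions, and the reverse held for 1, against 19.3% of all.

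The 3 regions with an unadjusted p under 0.05 lie 1285, 1663 and 1694 kb downstream of the Myc start, in introns of the noncoding gene Gm41335, and their sequences are given above. All 3 were seen in at least 5 cells at 0 hours and in fewer at 24 hours, so each is in the matrix only through the group in which it is high, and their count and p-values are a description. The region at 1285 kb (chr15:63270478-63270580) held 36.4 and 94.0 CPM at 0 hours and none at 24 hours, from 5 and 7 cells against 0 of 132 cells. Against a floor of 3 counts over the 24-hour group, its observed 0-hour level was 5.16-fold higher. This value carries no error on the 0-hour counts. The region at 1663 kb (chr15:63648274-63648400) held 103 and 73.1 CPM at 0 hours and 16.2 and 7.33 CPM at 24 hours, from 11, 5, 1 and 1 cells, with a log2 change of -2.85 (SE 1.01, adjusted p = 0.236 by edgeR). The region at 1694 kb (chr15:63679062-63679177) held 60.6 and 83.6 CPM at 0 hours and 24.3 and 0 CPM at 24 hours, from 6, 5, 2 and 0 cells, with a log2 change of -2.51 (SE 1.11, adjusted p = 0.327 by edgeR). In all 3 the runs of the time-points did not overlap. The last of them was called, with an adjusted p of 0.0459, when 24-hour run 1 was left out, which leaves the run in which it was not detected.

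Between these regions lay 5 others. The one at 1667 kb held 30.3 and 31.3 CPM at 0 hours and 8.09 and 7.33 CPM at 24 hours, without overlap, and reached 5 cells at 0 hours alone. In the other 4 the runs of the time-points overlapped, and of these the region at 1673 kb (chr15:63658121-63658271) was the most widely detected of the 14, in 3, 7, 6 and 6 cells, and held 36.4 and 94.0 CPM at 0 hours and 72.8 and 73.3 CPM at 24 hours, with a log2 change of 0.24 (SE 0.77). It belongs to a group of 7 regions that lie within 67.9 kb of each other, from 1626 to 1694 kb downstream. This group was detected in 43.8% and 36.2% of the 0-hour cells and in 25% and 15.3% of the 24-hour cells. However, most of the 7 regions, among them those at 1663, 1667 and 1694 kb, are in it through the 0-hour cells alone. Another 3 regions lie at or in Pvt1, from 52.5 to 121 kb downstream, and were seen in 5, 7 and 10 cells.

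**Figure D5:**
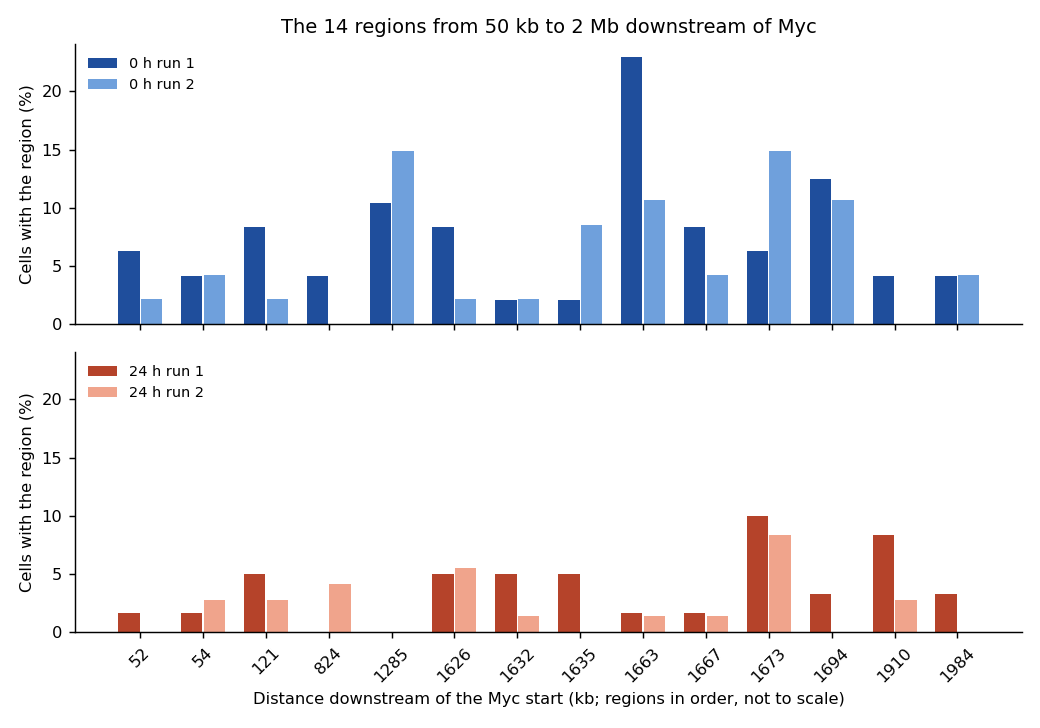
Share of cells (%) with each of the 14 regions from 50 kb to 2 Mb downstream of the Myc start, in the order of their distance (kb), with the 0-hour runs in the upper and the 24-hour runs in the lower panel. The bars at 52, 54, 1285, 1663, 1667, 1694 and 1984 kb are higher in each 0-hour run than in either 24-hour run. In the 24-hour runs they reach at most 3.33%, while those at 1673 kb are present in all 4 runs. The shares are not scaled for depth.

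Of the letters that Myc and Max bind, CACGTG, which reads the same on both strands, was found in 4 of the 29 member regions, 13.8% against 4.72% of all regions. The 4 were at Mnt, at Mxd3 and in 2 regions upstream of Mga, and none of the 5 Myc regions or the 16 downstream regions held it. In windows of 300 bases centred on the regions it was found for 7 of 29, 24.1% against 8.57% of all windows. Among these, the windows of 2 adjoining regions upstream of Mga overlap and hold the same E-box. The smaller of these regions is 7 bases wide. The looser form CANNTG, which includes CACGTG, was found in 51.7% of the member regions and 44.7% of all regions. The Ikaros core GGGAA on either strand was found in 27.6% of the member regions and 35.6% of all, in 3 of the 5 Myc regions, and in 6 of the 16 downstream regions. Of the 3 downstream regions with the smallest p-values it was found in those at 1663 and 1694 kb. The longer form TGGGAA, which contains GGGAA, was found in 1 member region, at Mxd4, against 9.80% of all regions. These are letter matches, with no test, and they do not show binding.

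Of the wider pathway, 52 genes in 6 lists were looked up and 41 had a region, and 0 of the 41 passed the edgeR test in either direction, against 0.354% of all genes. At an unadjusted p under 0.05 there were 0 lower and 4 higher, against 6.23% and 5.78% of all genes. Their median log2 change was 0.24, against 0.04 over all genes. Among 19 measured target genes of Myc, 8 had log2 changes below 0 and 11 above, with a median of 0.19. Npm1 and Zbtb17 had 1 region each, which reached 5 cells at 24 hours alone, so their differences are a description. Npm1, a nucleolar chaperone of ribosome assembly and a known Myc target, had the smallest p of the 41, with 21.3 and 0 CPM at 0 hours and 90.6 and 190 CPM at 24 hours (log2 change 3.32, SE 0.91). Zbtb17, also called Miz1, through which Myc represses genes, held 0 and 12.6 CPM at 0 hours and 63.4 and 94.8 CPM at 24 hours (log2 change 3.79, SE 1.29). In both genes the 24-hour runs lay above the 0-hour runs. In the other direction the smallest p-values were those of Wdr5, a cofactor that helps Myc hold chromatin, with 142 and 177 CPM at 0 hours and 72.5 and 103 CPM at 24 hours, and of Huwe1, a ubiquitin ligase of Myc, with 128 and 75.8 CPM at 0 hours and 27.2 and 86.9 CPM at 24 hours. Wdr5 had a log2 change of -0.83 (SE 0.60) and Huwe1 of -0.84 (SE 0.73).

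The other lists were described by the same counts. All 4 measured Sin3 and histone deacetylase corepressors had log2 changes above 0, with a median of 0.41, and none passed the test. Of 10 measured cofactors of Myc, 7 were above 0 and 3 below. Of 5 genes for the turnover of Myc protein, 4 were above 0, among them Fbxw7, the ubiquitin ligase adaptor that marks Myc for degradation, with 85.0 and 63.2 CPM at 0 hours and 226 and 174 CPM at 24 hours (log2 change 1.38, SE 0.58, adjusted p = 0.289 by edgeR). The 2 measured genes of the MLX arm, Mlx and Mlxip, had log2 changes of 0.44 and 0.52, and Hbp1, a repressor of Myc activity, of 0.21. Scaling by the number of cells lowered the median of all genes by 0.37, so the sign of changes of this size depends on the scaling.

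The genes most like Myc over the 4 runs were Dnah11, Bend4 and Xrn1, by the Euclidean distance between mean-centred log2(CPM + 1) values, among 3092 genes with a summed count within 2-fold of Myc's. Their distances were 0.104, 0.105 and 0.107. Dnah11, for example, held 248 and 215 CPM at 0 hours and 117.8 and 111 CPM at 24 hours. Likeness over 4 runs is a description of these runs.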

How the data were processed

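The authors mapped single-cell libraries to mm10 with Bowtie2, removed duplicates with Picard, took peaks from the bulk replicates by HOMER, and deposited the count of each cell in each region, without normalization. The deposited counts are 0, 1 or 2, and the sources used here do not give how higher values were treated. The bulk ATAC-seq samples were not analysed here. Counts were summed per C1 run, the replicate, and tested over all regions, or over all genes after summing regions, with edgeR 4.0.16 in R 4.3.3 (quasi-likelihood, TMM, Benjamini-Hochberg, threshold 0.05). The test was checked on simulated data: it recovered the fold changes put in, but at a spread like or above that of these runs it called none of the altered regions and few of the altered genes. DESeq2 1.42.0 was an alternative, and SciPy 1.17.1 gave exact permutation tests and Clopper-Pearson intervals, which cover counting error only. Depth was 92639 to 164357 counts per run. Thinning to 837 counts left out 23 cells. Doublets were not called, because capture sites had been inspected by eye in the study.

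The rule names all regions of the 9 genes, but several are given only within the sum of their gene, and 1 region of Mga is not reported here on its own. Of the downstream window, those assigned to Myc, those called and the 3 detected in most cells are named, and the region at 1285 kb was added after its values were seen. The region at 1667 kb and the 3 at or in Pvt1 are also mentioned, although they meet none of these criteria. Of the pathway lists, the 2 genes with the smallest unadjusted p in each direction are named where none is called, and Fbxw7, Mlx, Mlxip and Hbp1 were added after their values were seen. Likeness was searched among genes with 0.5 to 2 times the summed count of Myc. The genes, lists and tests were chosen with earlier results of these data known. Alternatives were another normalization, the number of cells as offset, filters, detected or not detected, thinned cells, other start sites and distances, a replicate block and each run left out. The run numbers are in the titles for the second run of each time-point and no source used here says that they pair cultures.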

Additional observations from a re-analysis of the deposited data

How the results depend on the processing

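The number of member regions called was 0, of member genes 0 and of downstream regions 0 in the fit described and under every alternative that keeps all 4 runs. With each run left out these counts ranged from 0 to 1, and the 1 came in each case without 24-hour run 1 (Mga, 1 of its regions and the downstream region at 1694 kb). Of 112 gene values under alternatives, 93 kept their direction and their side of the threshold, 18 reversed and 1 became a call, and of 433 values of single regions these numbers were 371, 60 and 2. With cell numbers as offset, log2 changes reversed to -0.011 for Max, -0.028 for Mxi1, -0.17 for Mxd1, -0.080 for Mxd4, -0.20 for Mnt and -0.13 for the downstream region at 1673 kb. With regions detected in at least 10% of cells they reversed to -0.30 for Mxi1, -0.0031 for Mxd1 and -0.27 for Mnt, and with a distance of at most 10 kb to -0.19 for Mxi1. In thinned cells the Mxd4 value was 3.56 and those of the Myc regions at -0.92 and -0.28 kb were -0.97 and -0.18, and log2 changes reversed to -0.42 for Mxd1, 1.42 for Mxd3 and -0.35 for the region at 1673 kb, and with values reduced to detected or not detected to 0.26 for the Myc region at -1.90 kb. With the replicate block Mxd3 was 0.0096, the Myc region at 1.68 kb 0.25 and Myc -0.92, no member was called, and the summed downstream regions were -0.65. The run numbers mark no shared culture in the labels. The causes of these reversals were not tested.

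With each run left out, log2 changes ranged from -0.024 to 0.47 for Mxd1, -0.41 to 0.38 for Mxd3, -0.70 to 1.39 for Mxd4, -0.11 to 0.38 for Mnt, 0.33 to 2.22 for Mga, -0.80 to 0.25 for the Myc region at -1.90 kb, -5.07 to -1.81 for the one at -0.92 kb, -2.18 to -0.66 for the one at -0.28 kb, -2.01 to 0.18 for the one over the start, -1.12 to 5.24 for the one at 1.68 kb, -0.34 to 0.99 for the downstream region at 1673 kb and -6.24 to -1.50 for the one at 1694 kb. The summed downstream regions lay between -0.93 and -0.37 without 1 run and between -1.09 and -0.62 otherwise. None of the 16 downstream regions was detected in 10% of cells, so that filter gave no value there. In thinned cells the share with any member region was 54.2% and 45.7% at 0 hours and 68.1% and 69.8% at 24 hours, so the overlap between time-points seen at full depth was not kept. In windows of 300 bases CANNTG was found for 75.9% and GGGAA for 55.2% of the member regions, since the windows are longer than the regions.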
